A study of Mus musculus with 2 samples.

Results

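Mt1 and Mt2 are the pair of broadly expressed mouse metallothionein genes, and they were found by their symbols as 2 of the 32285 genes listed in scRNAseq counts from mouse kidney. The control library came from the contralateral, uninjured kidney, and the ischemia library from a kidney that underwent 27 min of left-sided ischemia followed by 24 h of reperfusion. Both were from male wildtype C57BL/6J mice aged 19 weeks. The control is therefore a kidney of an operated animal and not of a naive mouse, and each group has 1 library, so no difference between the libraries has a replicate check and no test was possible. After filtering, 12586 control cells and 13116 ischemia cells remained, with 124679362 and 128733541 unique molecular identifiers (UMIs, which count captured RNA molecules) in total and a median of 3839 and 2138.5 UMIs per cell. The kept cells of the 2 libraries shared 58 barcode sequences.

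Metallothioneins are small, cysteine-rich proteins that bind zinc and copper, buffer the free concentration of these metals and react with oxidants. Their genes are induced by zinc and cadmium through the transcription factor MTF1, which binds metal response elements, and also by glucocorticoids, by cytokines that act through STAT3 and by oxidative stress. In the kidney they are best known for holding filtered cadmium in tubule cells. Mt3 is the family member first described in brain, and Mt4 is typical of stratified epithelium.

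Both genes lie on the plus strand of chromosome 8 (GRCm38, GENCODE M21). Mt1 (ENSMUSG00000031765) spans chr8:94179082-94180327 and Mt2 (ENSMUSG00000031762) spans chr8:94172664-94173568, each with 3 exons in its first listed transcript, and 5513 bases separate the end of Mt2 from the start of Mt1. The 250 bases before the RefSeq start of each gene are shown because metal response elements are known to lie near the start of metallothionein genes, with letter matches to the motifs searched in capitals (GRCm38.p6, plus strand, chr8:94178839-94179088 for Mt1 and chr8:94172368-94172617 for Mt2).
Mt1: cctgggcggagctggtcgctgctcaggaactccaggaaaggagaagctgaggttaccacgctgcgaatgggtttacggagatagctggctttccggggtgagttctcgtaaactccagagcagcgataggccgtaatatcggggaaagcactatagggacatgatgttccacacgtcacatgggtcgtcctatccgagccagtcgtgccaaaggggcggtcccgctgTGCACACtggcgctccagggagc
Mt2: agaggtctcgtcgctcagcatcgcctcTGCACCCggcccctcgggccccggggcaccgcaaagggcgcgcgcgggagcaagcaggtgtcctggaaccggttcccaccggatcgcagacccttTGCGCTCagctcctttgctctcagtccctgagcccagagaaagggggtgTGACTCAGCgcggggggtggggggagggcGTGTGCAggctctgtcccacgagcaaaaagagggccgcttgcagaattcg

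The core of the metal response element was searched as TGCACNC or TGCGCNC on both strands, over the 250 bases before and the 50 bases after each start. Mt1 had 3 matches, of which 1 lies before the start and 2 after it, and Mt2 had 4, of which 3 lie before the start. At least 3 matches occurred in 1.97% and at least 4 in 0.517% of 32851 promoters of the same length. Mt3 and Mt4 had 1 match each, and at least 1 match occurred in 25.7% of promoters. The antioxidant response element core, searched as TGACNNNGC on both strands, had 1 match in Mt2 and none of these letters in the windows of Mt1, Mt3 and Mt4, against at least 1 match in 12.4% of promoters. GENCODE lists other transcripts of Mt1 that start at 94179211 and 94179241, downstream of the window searched here. It also lists an Mt2 transcript that starts at 94172860, downstream of the Mt2 window. The bases directly before those starts were not searched. The counts of both genes, including 0 antioxidant response element matches in Mt1, thus hold for these windows only. They do not show that Mt1 lacks a motif that Mt2 has.

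Cells were grouped by clustering without the metallothionein genes, and clusters were named from marker genes, which gave 13 cell types. These are proximal tubule (PT), thin limb, thick ascending limb (TAL), distal convoluted and connecting tubule (DCT-CNT), collecting duct principal (CD-PC) and intercalated (CD-IC) cells, podocytes, endothelial cells (EC), stromal cells, macrophages, neutrophils (PMN), T and NK cells and B cells, each called "-like" since the names were rebuilt here. Every named type had all markers of its list at 10 or more UMIs in each of its clusters. A cluster of 10544 cells with a median of 838 UMIs stayed unnamed, as did clusters of 1576 and 118 cells. A level is given in CPM, which is UMIs of the gene divided by all UMIs of the type and scaled to 1000000, with an exact Poisson 95% interval that covers counting error only. UMIs mark the 3' ends of molecules and are not scaled by gene length, so Mt1 and Mt2 are compared with each other only as a ratio followed across types. Fewer cells of a state and less RNA per cell cannot be told apart in such sums.

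Mt1 and Mt2 RNA was concentrated in the distal nephron of both kidneys. In the control library, Mt1 was at 3134 CPM in DCT-CNT-like cells (95% interval 3098 to 3170), 2779 in TAL-like cells (2747 to 2811) and 979 in CD-IC-like cells (921 to 1039). The first and second place changed with at most 25% mitochondrial UMIs (TAL-like 3946 CPM, DCT-CNT-like 3765) and with marker UMIs in place of clusters (2773 and 2453). Podocyte-like (651 CPM), CD-PC-like (615), stromal-like (561) and thin limb-like cells (483) followed, and the intervals of neighbours in this run overlapped. Macrophage-like cells held 387 CPM. EC-like (198 CPM), T and NK cell-like (163), B cell-like (116), PT-like (86.2) and PMN-like cells (62.6) came last, again with overlapping neighbours. PT-like cells held 57.5% of all control UMIs but 6.75% of Mt1 UMIs, whereas TAL-like cells held 8.26% of all UMIs and 31.3% of Mt1 UMIs.

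In the control library Mt2 was at 483 CPM in DCT-CNT-like cells (469 to 498) and 436 in TAL-like cells (423 to 449), and these intervals did not overlap each other or that of any other type. As for Mt1, TAL-like cells came first with at most 25% mitochondrial UMIs (692 CPM, DCT-CNT-like 600) and with marker UMIs in place of clusters (428 and 374). Podocyte-like (130 CPM), stromal-like (103), CD-IC-like (100.0), thin limb-like (97.1) and CD-PC-like cells (84.0) followed, each with an interval that overlapped its neighbour. PT-like cells were last, at 7.88 CPM (7.25 to 8.56), and were not told apart from PMN-like cells at 10.9 CPM (2.97 to 27.9). Over the 13 types, the log2 levels of Mt1 and Mt2 had a Pearson's r of 0.953 (control) and 0.971 (ischemia), a description over types that share libraries and depth.

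In the ischemia library TAL-like cells stood first for both genes, with 11299 CPM of Mt1 (11241 to 11358) and 2797 CPM of Mt2 (2768 to 2826). DCT-CNT-like cells held 5090 CPM of Mt1 (5040 to 5141) and 1273 CPM of Mt2, and thin limb-like cells 1636 and 714 CPM. PT-like cells were last for both, at 250 CPM of Mt1 (247 to 254) and 35.7 CPM of Mt2 (34.3 to 37.1). TAL-like cells held 53.4% of Mt1 UMIs and 53.6% of Mt2 UMIs while holding 9.77% of all UMIs of this library. The share of DCT-CNT-like cells was 31.3% of Mt1 UMIs for control and 14.6% for ischemia. The unnamed cluster of 1576 cells, whose leading genes held the TAL marker Ppp1r1a and the DCT-CNT marker Pvalb, went from 2776 to 10014 CPM of Mt1. When the libraries were clustered without integration, the first place in the ischemia library passed to DCT-CNT-like cells (9804 CPM of Mt1, against 7965 in TAL-like cells). In that setting, though, the TAL-like group held 0.676% of the ischemia Mt1 UMIs in place of 53.4%, so its values rest on a small remnant. Whether the other TAL-like cells had joined the DCT-CNT-like group was not tested.

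**Figure D1:**
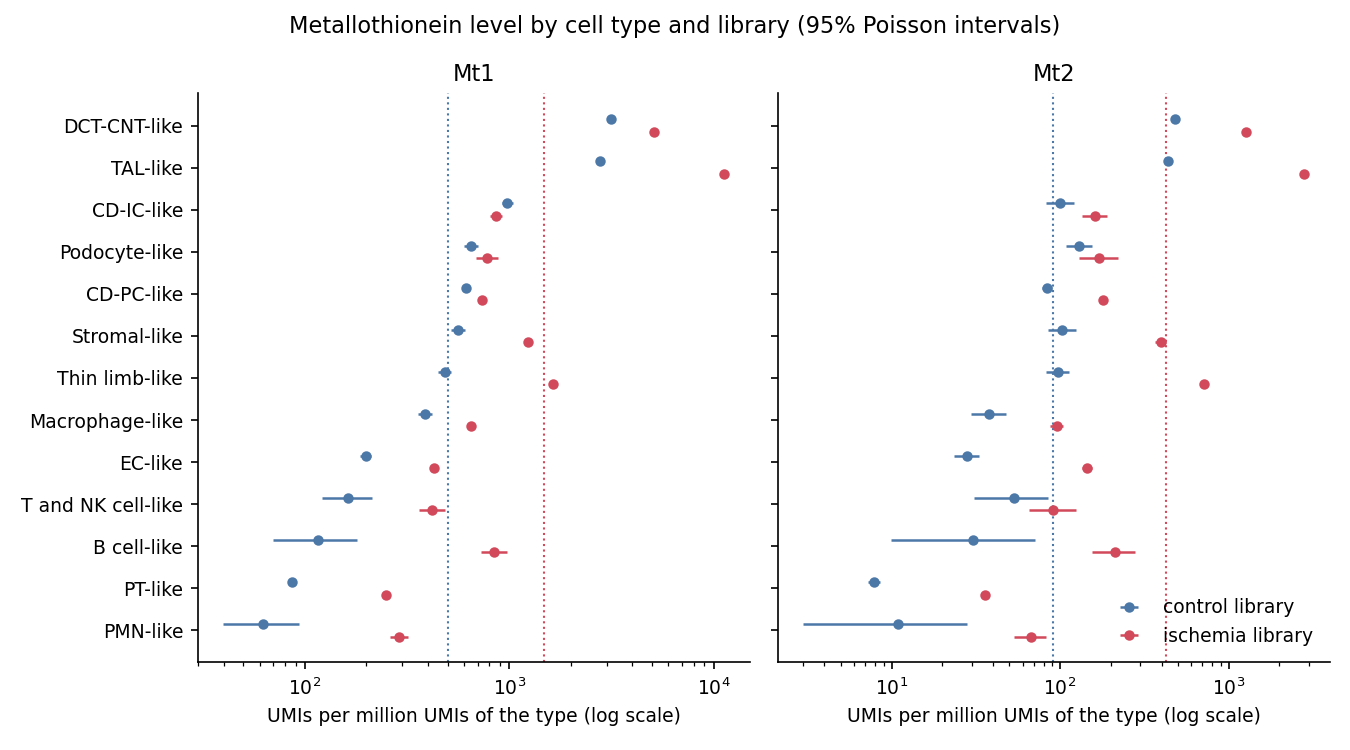
Points give the CPM of Mt1 (left) and Mt2 (right) on a log axis in each cell type of the control (blue) and ischemia (red) library, with 95% Poisson intervals, and dotted lines give the levels of the unnamed low-depth cluster. TAL-like and DCT-CNT-like cells lie to the right of all other types in both libraries, and Mt1 in TAL-like cells goes from 2779 to 11299.

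The comparison of the libraries asks how these genes differed 24 h after ischemia. A difference was counted when the CPM was at least 2-fold apart, a rule of size and not a test. Mt1 was at least 2-fold higher in the ischemia library in 8 of 13 cell types and Mt2 in 10 of 13, and neither was 2-fold lower in any of the 13. The 8 include PMN-like and T and NK cell-like cells, whose Mt1 was not above that of the low-depth cluster described with the free RNA values. That comparison sets Mt1 beside PT genes and is not in CPM. By it, control B cell-like Mt1 was not above the cluster either. In CPM the cluster held 1488 of Mt1 in the ischemia library, above all named types but TAL-like, DCT-CNT-like and thin limb-like cells. PT-like cells are also among the 8, and their part from free RNA was not settled. Of the 10, PMN-like (4 and 82 UMIs) and B cell-like cells (5 and 48 UMIs) had fewer than 100 Mt2 UMIs, and the other 8 had more. Beside PT genes, PMN-like Mt2 was not above the low-depth cluster in either library. By the same measure, EC-like and B cell-like Mt2 was not above it in the control. Control PT-like Mt2 was not above it beside Umod, the gene used for PT-like cells. Over all kept cells, control and ischemia held 734 and 2067 CPM of Mt1 and 110.1 and 509 CPM of Mt2. The 13 ratios of ischemia to control ranged from 0.881 to 7.30 for Mt1, with a median of 2.21, and from 1.31 to 7.35 for Mt2, with a median of 3.82. The median ratio of all genes tested was 1.08 in PT-like and 1.07 in TAL-like cells.

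In TAL-like cells, which reabsorb sodium chloride in the outer medulla and cortex, the ischemia CPM was 4.07 times the control for Mt1 (4.01 to 4.12) and 6.42 times for Mt2 (6.22 to 6.62). Of 10020 genes with at least 100 UMIs in these cells, 6.87% were at least 2-fold higher, and the ratios of Mt1 and Mt2 exceeded those of 98.0% and 99.0% of them. Clustered without integration, the Mt2 ratio was 3.79 in the remnant that kept the TAL-like name, with 0.462% of the ischemia Mt2 UMIs in place of 53.6%. Thin limb-like cells went from 483 to 1636 CPM of Mt1, a ratio of 3.39 (3.14 to 3.65), and from 97.1 to 714 CPM of Mt2, a ratio of 7.35 (6.27 to 8.67), where 4.24% of genes were at least 2-fold higher. Without the thin limb-like cell with the most Mt1 UMIs (755), the Mt1 ratio was 2.87, and with cells assigned by marker UMIs in place of clusters it was 6.34. DCT-CNT-like cells, the other site of high control levels, had lower ratios, of 1.62 (1.60 to 1.65) for Mt1 and 2.63 (2.54 to 2.73) for Mt2 against 5.07% of genes 2-fold higher. Clustered without integration, DCT-CNT-like cells had ratios of 2.99 and 4.77, and the latter was above that of the TAL-like remnant. Their ischemia Mt1 was then at 9804 CPM in place of 5090. Whether this group had taken in TAL-like cells was not tested, so these ratios may not be those of DCT-CNT-like cells alone.

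PT-like cells, which reabsorb most of the filtrate and are the main site of ischemic damage, had levels at the low end of all types in both libraries. Mt1 went from 86.2 to 250 CPM, a ratio of 2.90 (2.82 to 2.99), and Mt2 from 7.88 to 35.7 CPM, a ratio of 4.53 (4.13 to 4.97). Of 12335 genes tested in PT-like cells 5.81% were at least 2-fold higher, and 97.2% and 98.6% of genes had a ratio below those of Mt1 and Mt2. The low-depth cluster described with the free RNA values had close ratios, of 2.975 for Mt1 and 4.66 for Mt2. The part of free RNA in the PT-like ratios was not settled.

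In the collecting duct the libraries were closer. CD-PC-like cells, which take up water through aquaporin 2, had 615 and 735 CPM of Mt1, a ratio of 1.19 (1.15 to 1.24), and 84.0 and 180 CPM of Mt2, a ratio of 2.14 (1.97 to 2.33), with 4.66% of genes at least 2-fold higher. CD-IC-like cells had among their leading genes Slc26a4 and Slc4a9, transporter genes of base-secreting intercalated cells, whereas Aqp6, known from acid-secreting ones, was among the leading genes of CD-PC-like cells. CD-IC-like cells thus do not stand for intercalated cells in general, and CD-PC-like cells may not be principal cells alone, which was not tested. CD-IC-like cells were the only type with less Mt1 in the ischemia library, at 979 and 863 CPM and a ratio of 0.881 (0.803 to 0.968). Their Mt2 went from 100.0 to 161 CPM, a ratio of 1.61 (1.25 to 2.08). In these cells 5.88% of genes were at least 2-fold higher. The CD-IC-like direction of Mt1 turned in 3 of 10 alternatives, with a ratio of 1.204 when each cell was given equal weight. The CD-PC-like ratio of Mt2 was under 2 in 3 of 10 alternatives, with a lowest value of 1.87. With marker UMIs in place of clusters the CD-PC-like ratios were 1.90 for Mt1 and 5.85 for Mt2. The CD-IC-like ratio of Mt2 was 2.59 with equal weights and 1.06 without the 5% of cells richest in both genes.

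Podocyte-like cells, the filtering epithelium of the glomerulus, had 651 and 777 CPM of Mt1, a ratio of 1.19 (1.03 to 1.38), and 130 and 171 CPM of Mt2, a ratio of 1.31 (0.939 to 1.81), where 0.285% of genes were at least 2-fold higher. A single ischemia cell with 112 Mt1 UMIs decided this direction, since the ratio of Mt1 without it was 0.741. In thinned cells the Mt2 ratio was 0.869, where only 7 of 53 ischemia cells had an Mt2 UMI. EC-like cells went from 198 to 427 CPM of Mt1 and from 27.9 to 144 CPM of Mt2. Their ratios were 2.16 (2.004 to 2.32) and 5.17 (4.32 to 6.23), in cells where only 1.41% of genes were at least 2-fold higher, although the Mt1 ratio fell below 2 in 2 of 11 alternatives (lowest 1.92). Control EC-like Mt2 was not above the low-depth cluster described with the free RNA values. Stromal-like cells, a mix of smooth muscle cells, pericytes and fibroblasts, had 561 and 1240 CPM of Mt1, a ratio of 2.21 (2.02 to 2.43), and 103 and 395 CPM of Mt2, a ratio of 3.82 (3.12 to 4.73), with 2.52% of genes 2-fold higher. The stromal-like Mt1 ratio was 1.85 without the 5% of cells richest in both genes.

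Among leukocytes, macrophage-like cells had 387 and 648 CPM of Mt1, a ratio of 1.67 (1.54 to 1.82), and 37.9 and 95.3 CPM of Mt2, a ratio of 2.51 (1.95 to 3.28), where 5.46% of genes were at least 2-fold higher. The Mt2 ratio of macrophage-like cells was 4.48 in thinned cells, where only 7 of 282 control cells had an Mt2 UMI. PMN-like cells had 23 and 355 Mt1 UMIs, or 62.6 and 289 CPM, with a ratio of 4.62 (3.03 to 7.38) against 19.4% of genes 2-fold higher, and of 2.25 with at most 25% mitochondrial UMIs. T and NK cell-like cells had 52 and 184 Mt1 UMIs, with a ratio of 2.58 (1.89 to 3.59) against 1.55% of genes. B cell-like cells (39 control and 40 ischemia) had Ighg3, Igha, Jchain and Mzb1 among their leading genes, and of their marker list only Cd79a. They may thus include antibody-secreting cells, which was not tested. B cell-like cells had 19 and 192 Mt1 UMIs, with a ratio of 7.30 (4.55 to 12.4) against 7.39% of genes. A single B cell-like cell of the ischemia library held 96 of these UMIs, and the ratio without it was 4.34. With marker UMIs in place of clusters it was 2.58.

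**Figure D2:**
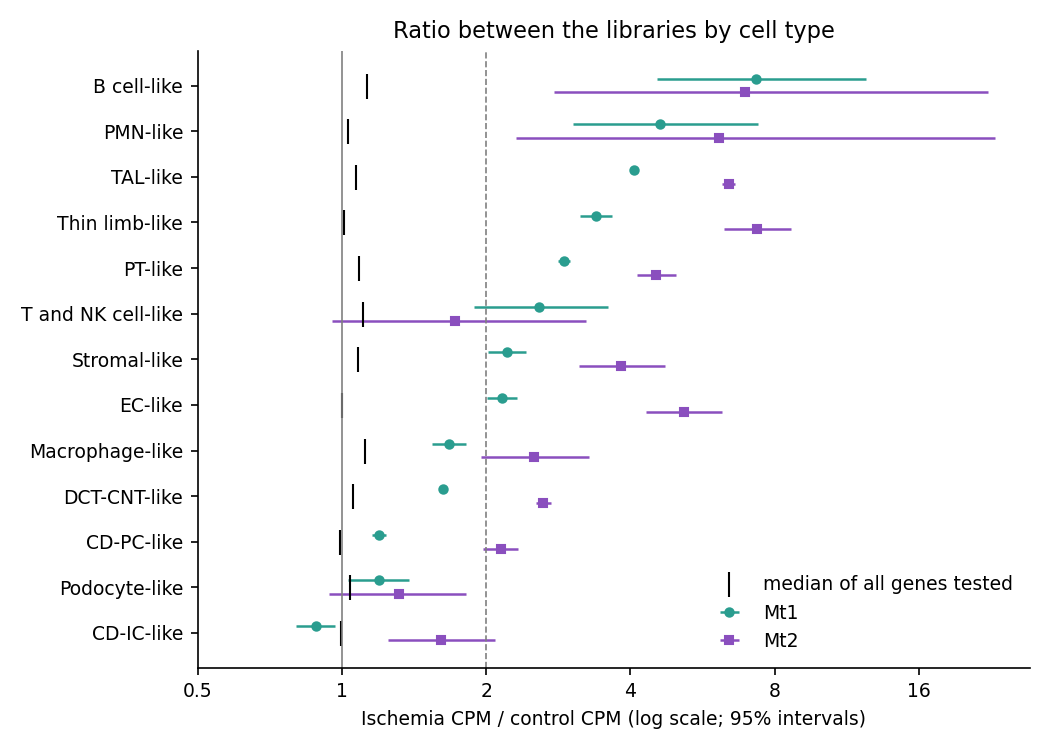
Ratio of ischemia to control CPM of Mt1 (circles) and Mt2 (squares) by cell type on a log axis with 95% intervals, beside the median ratio of all genes tested in that type (black ticks); the dashed line marks a ratio of 2. Mt1 lies right of the dashed line in 8 types and Mt2 in 10, and CD-IC-like cells alone have an Mt1 ratio under 1, at 0.881.

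Since free RNA enters every droplet, a cell can hold UMIs of genes it does not transcribe. For this reason each type was set beside the unnamed low-depth cluster, where the summed PT genes Kap, Miox and Slc34a1 stood at 12432 (control) and 11574 CPM (ischemia). In that cluster Mt1 was at 500.1 and 1488 CPM and Mt2 at 90.9 and 423 CPM. Whether its barcodes hold cells or mainly free RNA was not tested. Mt1 made up 3.87% of the UMIs of Mt1 and these PT genes together for control (3.73 to 4.01) and 11.4% for ischemia (11.2 to 11.6). T and NK cell-like cells had 2.73% (2.04 to 3.56) and 12.6% (10.9 to 14.4), and PMN-like cells 3.31% (2.11 to 4.92) and 12.5% (11.3 to 13.8). Their Mt1 was thus not above the share of the low-depth cluster, so these values do not show Mt1 beyond a possible background in them. Control B cell-like cells were at 3.08% (1.86 to 4.77), likewise not above it, and ischemia B cell-like cells at 27.3% (24.0 to 30.8). EC-like cells were above it, with 5.04% (4.74 to 5.36) and 17.4% (16.8 to 18.0), and macrophage-like cells further above, with 11.9% (11.1 to 12.8) and 29.4% (28.6 to 30.3). For Mt2 the low-depth cluster had 0.726% (0.666 to 0.790) for control and 3.53% (3.39 to 3.67) for ischemia. Control EC-like Mt2, at 0.742% (0.624 to 0.876), was not above it, and ischemia EC-like Mt2 was, at 6.63% (6.22 to 7.05). PMN-like Mt2, at 0.592% (0.161 to 1.51) and 3.21% (2.56 to 3.97), was not above it in either library. Control B cell-like Mt2, at 0.829% (0.270 to 1.92), was not above it either. Macrophage-like Mt2 was above it in both, at 1.31% and 5.78%.

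PT-like cells make the PT genes themselves, so Umod, a product of TAL cells, served as their measure. This gene was added after the values were seen. There were 1.13 Mt1 UMIs per Umod UMI in control PT-like cells against 0.789 in the low-depth cluster, and 7.40 against 3.09 in the ischemia library. For Mt2 these values were 0.103 against 0.143 in the control, so control PT-like Mt2 was not above this background, and 1.05 against 0.879 in the ischemia library. In CPM, Mt1 in PT-like cells was below T and NK cell-like cells in both libraries. The part of free RNA in the PT-like ratios was not tested further.

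The RNA was not spread evenly over cells of a type. A control TAL-like cell had a median of 1889 CPM of Mt1, with the 25th and 75th percentiles at 751 and 3519 CPM, and an ischemia TAL-like cell a median of 8368 CPM, with 3990 and 13836 CPM. The 25th percentile of the ischemia cells thus lay above the 75th percentile of the control cells. The 90th percentile was 16.6 times the 10th in control and 14.4 times it in ischemia cells. The highest cell held 1533 Mt1 UMIs. In DCT-CNT-like cells the medians were 2320 and 2777 CPM and the quartile ranges overlapped, from 932 to 3984 CPM (control) and from 1140 to 5609 CPM (ischemia). In PT-like cells the medians were 44.9 and 136 CPM, and the 10% of ischemia cells with the most Mt1 UMIs held 63.7% of its UMIs. That ranking also favours deep cells. The 10% of ischemia PT-like cells with the highest Mt1 CPM held 46.3% of its UMIs.

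Shares of cells were compared after random thinning to a common depth of 1000 UMIs, which left out shallower cells. Of thinned TAL-like cells, 70.4% of 497 (control) and 92.8% of 488 (ischemia) had an Mt1 UMI, and 28.0% and 78.9% had an Mt2 UMI. Unthinned, the Mt1 shares were 98.0% and 98.4%, and 1 and 2 cells were too shallow to thin. Both genes were seen together in 24.5% of thinned control and 77.3% of thinned ischemia TAL-like cells. Of thinned DCT-CNT-like cells, 77.3% of 467 and 77.5% of 351 had an Mt1 UMI, whereas 31.0% and 49.3% had an Mt2 UMI. Thin limb-like cells went from 21.3% of 89 to 51.3% of 76 for Mt1. Of thinned PT-like cells, 9.93% of 3725 and 20.4% of 2738 had an Mt1 UMI, after 104 control and 50 ischemia cells were left out, and 1.53% and 5.08% had an Mt2 UMI. Unthinned, these PT-like shares were 61.0% and 83.6% for Mt1. T and NK cell-like cells, where Mt1 was not above the low-depth cluster, had Mt1 in 21.2% of 99 and 34.5% of 116 thinned cells, so the PT-like shares alone do not place PT-like cells above that type. Median depth before thinning differed, with 14401 and 18210.5 UMIs in PT-like and 3014 and 3393 UMIs in T and NK cell-like cells.

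**Figure D3:**
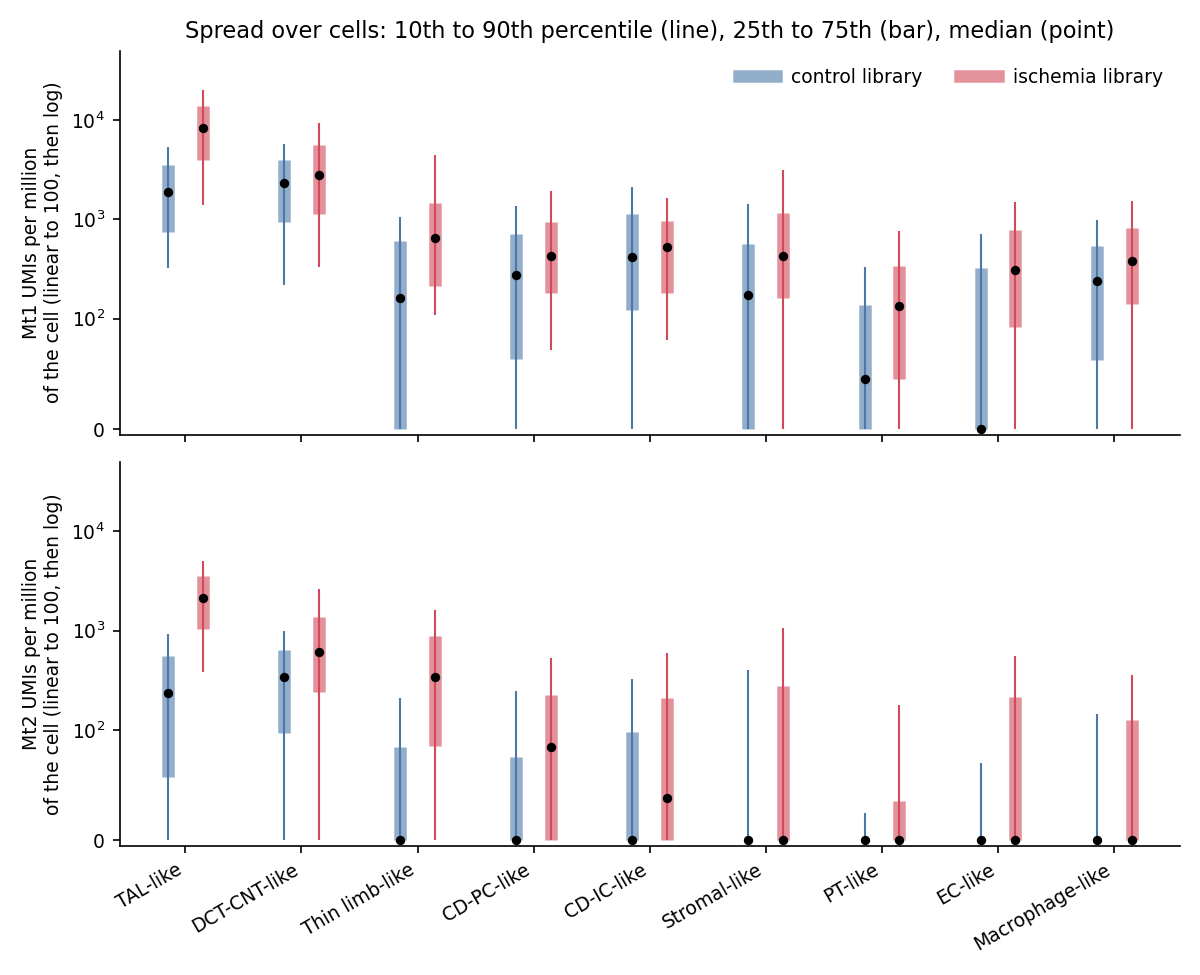
CPM of Mt1 (top) and Mt2 (bottom) in single cells of 9 cell types, on an axis that is linear to 100 and logarithmic above; thin lines run from the 10th to the 90th percentile, bars from the 25th to the 75th, and points mark the median. The bars of the control (blue) and ischemia (red) library do not overlap for Mt1 in TAL-like cells (751 to 3519 against 3990 to 13836 CPM).

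The balance between the 2 genes differed between the libraries. Over all kept cells there were 6.66 (control) and 4.06 (ischemia) Mt1 UMIs per Mt2 UMI. In TAL-like cells the values were 6.38 (6.18 to 6.58) and 4.04 (3.99 to 4.09), and in DCT-CNT-like cells 6.49 and 3.999. In PT-like cells they were 10.9 and 7.02. EC-like cells had 7.10 and 2.96, and thin limb-like cells, the lowest of all in the ischemia library, 4.98 and 2.29. The value was lower in the ischemia library in 11 of 13 types, with intervals that did not overlap in 9 of them. It was higher in T and NK cell-like (3.06 and 4.60) and B cell-like cells (3.8 and 4), with overlapping intervals. In the low-depth cluster it was 5.50 for control and 3.51 for ischemia.

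**Figure D4:**
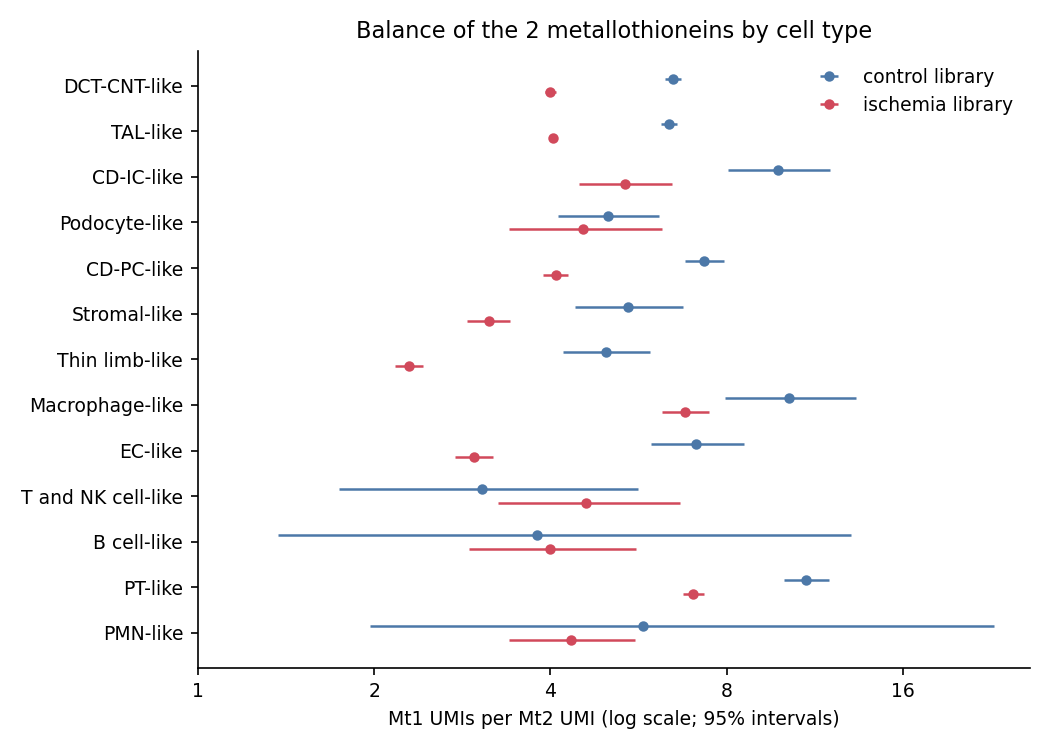
Mt1 UMIs per Mt2 UMI in each cell type of the control (blue) and ischemia (red) library on a log axis, with 95% intervals. The ischemia value lies left of the control value in 11 of 13 types, for example 4.04 against 6.38 in TAL-like cells.

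Injury genes give a second view of the tubule. Havcr1 encodes KIM-1, a receptor that damaged PT cells display, and PT-like cells held 7.14 (control) and 417 CPM (ischemia) of it. In the ischemia library, Mt1 was at 175 CPM in the 894 PT-like cells with no Havcr1 UMI (168 to 182), 203 in the 495 cells with 1 (193 to 212) and 282 in the 1399 cells with 2 or more (277 to 287). Cells without Havcr1 were shallower, with a median of 8216.5 UMIs against 34043. Mt1 in these cells was higher than the 86.6 CPM of control PT-like cells with no Havcr1 UMI, whose median was 13622.5 UMIs. Mt1 in the low-depth cluster also went from 500.1 to 1488 CPM, and the part of free RNA in this difference was not tested. Mt2 differed less between these groups, with 30.7, 32.1 and 37.9 CPM. In the same 3 groups of the ischemia library, Mt1 was at 11129, 11959 and 10673 CPM in TAL-like and 5230, 4655 and 5637 CPM in DCT-CNT-like cells. CD-PC-like cells had 736, 760 and 651 CPM and thin limb-like cells 1164, 1572 and 1872 CPM. CD-IC-like cells had 937, 943 and 196 CPM, the last from 3 cells. In the ischemia library Havcr1 was at 33.6 CPM in TAL-like, 23.6 in DCT-CNT-like, 21.1 in CD-PC-like and 20.1 in CD-IC-like cells. EC-like cells held 99.3 CPM. The Havcr1 groups of TAL-like, DCT-CNT-like, CD-PC-like and CD-IC-like cells may thus reflect free RNA, which was not tested. They cannot show whether the PT-like order held there. Thin limb-like cells held 298 CPM of Havcr1, above EC-like cells, and had the same order of Mt1 as PT-like cells. Their groups had 33, 14 and 30 cells with median depths of 14594, 17393.5 and 37017 UMIs, and whether depth set this order was not tested. Of the 3 PT-like clusters, the cluster led by the S3 segment gene Slc7a13 had the most Havcr1 (743 CPM) and the least Mt1 (198 CPM) in the ischemia library, and the others held 270 and 296 CPM of Mt1 with 250.1 and 274 CPM of Havcr1.

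Lcn2 encodes NGAL, an iron-carrier binding protein secreted by the injured distal nephron, and was at 426 and 5275 CPM in TAL-like cells. This split was added after the data were seen. In ischemia TAL-like cells, Mt1 was at 2123 CPM in the 25 cells with no Lcn2 UMI (1855 to 2420), 4236 in the 23 cells with 1 and 11466 in the 442 cells with 2 or more. The 25 cells without Lcn2 were shallow, with a median of 2228 UMIs against 25861.5 in the last group, and whether depth set this order was not tested. In the control library the 3 values were 2062, 2239 and 3355 CPM, with median depths of 16558, 19866 and 23481 UMIs. Other tubule types did not all show this order by Lcn2. In the ischemia library Mt1 was at 235, 256 and 274 CPM in PT-like and 2933, 3182 and 5724 CPM in DCT-CNT-like cells. Thin limb-like cells had 591, 1643 and 1719 CPM, the first from 6 cells. CD-PC-like cells had 747, 547 and 748 CPM (702, 816 and 447 in the control), and CD-IC-like cells 957, 905 and 648 CPM. Lcn2 itself was at 48.4 CPM in PT-like and 44.7 in CD-IC-like cells of the ischemia library, below 176 in EC-like cells. The Lcn2 groups of PT-like and CD-IC-like cells may thus reflect free RNA, which was not tested.

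**Figure D5:**
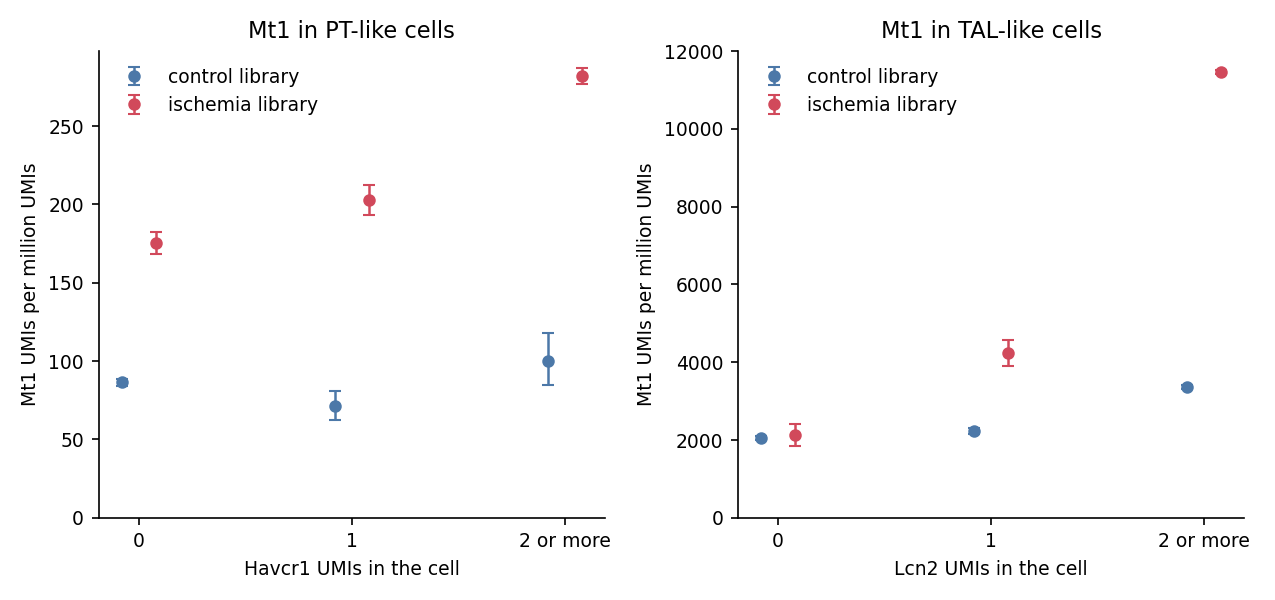
Mt1 CPM with 95% Poisson intervals in PT-like cells by their number of Havcr1 UMIs (left) and in TAL-like cells by their number of Lcn2 UMIs (right), for the control (blue) and ischemia (red) library. In the ischemia library the values go from 175 to 282 CPM across the Havcr1 groups and from 2123 to 11466 CPM across the Lcn2 groups.

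The other family members behaved differently. Mt3 (ENSMUSG00000031760, chr8:94152607-94154146) went from 24.1 (21.2 to 27.3) to 2.86 CPM (2.01 to 3.96) in TAL-like cells, a ratio of 0.119 (0.0814 to 0.169) in the same cells where Mt1 and Mt2 were higher. Mt3 UMIs were found in 131 of 498 control and 27 of 490 ischemia TAL-like cells. In TAL-like cells 7.22% of genes tested were at least 2-fold lower. DCT-CNT-like cells had 67 (control) and 1 (ischemia) Mt3 UMIs, or 7.33 and 0.131 CPM. Stromal-like cells had 6 and 27 UMIs and PT-like cells 13 and 79 UMIs, of which 29 were in 1 ischemia cell. Mt4 (ENSMUSG00000031757) had 0 UMIs in the control, which allows at most 3 of 124679362 UMIs, and 3 in the ischemia library.

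Genes that handle zinc and copper were examined in PT-like and TAL-like cells. Of 19 zinc genes with enough UMIs in PT-like cells, Slc39a6, a zinc importer, was at least 2-fold higher (1.48 and 3.56 CPM) and none was 2-fold lower, near the shares over all genes tested there (5.81% higher and 3.06% lower). The median log2 ratio of the list was 0.20 against 0.12 over all genes. Of 17 zinc genes in TAL-like cells, 3 were 2-fold higher and 1 was 2-fold lower, beside 6.87% and 7.22% of all genes, with a median log2 ratio of 0.38 against 0.10. Slc39a8, an importer of zinc and manganese, went from 6.90 to 34.5 CPM, a ratio of 5.01 (3.89 to 6.53). The importers Slc39a1 and Slc39a6 had ratios of 2.30 and 2.17. Slc39a13, an intracellular zinc transporter, went from 46.5 to 20.7 CPM. Mtf1, the metal-sensing activator of Mt1 and Mt2, was at 11.02 and 15.2 CPM in PT-like and 13.8 and 16.6 CPM in TAL-like cells. The zinc exporter gene Slc30a1, another target of MTF1, was at 18.8 and 24.8 CPM in PT-like and 15.2 and 20.1 CPM in TAL-like cells, ratios of 1.32 in both. Of 7 copper genes, Slc31a2 was 2-fold higher in PT-like cells (7.49 and 15.7 CPM) and 0 were in TAL-like cells, beside 5.81% and 6.87% of all genes.

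Lists for other known inducers of metallothioneins were examined in the same way, without a test between lists. None of 8 glucocorticoid response genes was 2-fold apart in PT-like or TAL-like cells. This was near the shares over all genes, with 5.81% higher and 3.06% lower in PT-like and 6.87% and 7.22% in TAL-like cells. The list had median log2 ratios of -0.28 and -0.094, against 0.12 and 0.10 over all genes. Of 7 oxidative stress genes tested, 3 were 2-fold higher in PT-like cells, beside 5.81% of all genes. These were Hmox1, which encodes heme oxygenase 1 (18.8 and 59.1 CPM), Gclc, which encodes the catalytic subunit of the enzyme that limits glutathione synthesis (71.4 and 175 CPM), and Srxn1, which encodes sulfiredoxin (28.2 and 56.8 CPM). In TAL-like cells Gclc alone of 7 was, beside 6.87% of all genes, at 82.6 and 426 CPM, a ratio of 5.15 (4.79 to 5.55). Of 6 STAT3 response genes, 4 were 2-fold higher in PT-like and 3 in TAL-like cells, beside 5.81% and 6.87% of all genes, with median log2 ratios of 2.36 and 1.27. In EC-like cells 0 of 8 glucocorticoid, 0 of 7 oxidative stress and 0 of 6 STAT3 response genes tested were 2-fold higher. In thin limb-like cells 1 of 5, 2 of 4 and 0 of 5 were. In DCT-CNT-like cells 1 of 7, 2 of 7 and 3 of 6 were, and in macrophage-like cells 0 of 8, 3 of 7 and 1 of 5. Over all genes, 1.41% and 4.24% were 2-fold higher in EC-like and thin limb-like cells. In DCT-CNT-like and macrophage-like cells these shares were 5.07% and 5.46%. The remaining types are not listed here. Whether any of these inducers acted on Mt1 and Mt2 was not tested. Osmr, which encodes a receptor for oncostatin M, went from 0.502 to 10.4 CPM in PT-like cells and from 0.777 to 12.7 CPM in TAL-like cells. Socs3, a feedback inhibitor of STAT3, went from 3.18 to 32.3 CPM in PT-like cells, and the transcription factor gene Cebpd from 3.91 to 28.2 CPM there and from 22.3 to 94.6 CPM in TAL-like cells. In TAL-like cells Cebpb went from 14.7 to 52.1 CPM.

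Of 14314 genes compared over 22 groups of cell type and library, the gene whose levels were most like those of Mt1 was Mt2 (Pearson's r of log2 levels 0.957), and the reverse held as well. Next for Mt1 came Slc5a3, which encodes the sodium and myo-inositol cotransporter (0.826), the predicted gene Gm16310 (0.816), Kctd1 (0.815) and Flvcr1 (0.800). Next for Mt2 came Las1l (0.816), Gm16310 (0.810), the ephrin gene Efna5 (0.796) and Slc5a3 (0.794). These r values describe groups from 2 libraries that share depth and free RNA, and in rank order only 2 of the 5 genes stayed in the top 5 for each. Between the libraries these genes did not all follow Mt1. In TAL-like cells Kctd1 went from 221 to 804 CPM and Las1l from 45.1 to 375 CPM, whereas Slc5a3 went from 711 to 512 CPM.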

How the data were processed

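The authors deposited raw UMI counts per gene and barcode, made with Cell Ranger 7.0.0 against mm10 per the submitters' processing notes. The filter took barcodes of 200 or more genes and 500 to 150000 UMIs, of which no more than 55% were mitochondrial. Cells were then clustered (Seurat 5.3.0, R 4.3.3; anchor integration, 2000 variable genes without the metallothioneins and the listed genes, 30 principal components, resolution 0.3). A cluster took the name of its best marker list. It stayed unnamed where its 10 leading genes held none of that list (the cluster of 118 cells) or as many or more of another list (the cluster of 1576 cells). It also stayed unnamed where its median depth was more than 3 times below that of all other cells. This last rule was added after the data were seen for the low-depth cluster, which had 3 haemoglobin genes among its 10 leading genes. Scrublet in scanpy 1.11.5 called 0 doublets in either library, so the caller had not worked and doublets were left in.

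UMIs were summed per library and type and given as CPM with exact Poisson intervals. Ratios have exact conditional binomial intervals, both at 95% and for counting error only, with no test because each group has 1 library. Genes needed 100 UMIs over both libraries in a type to enter the background shares. The scripts were tested on simulated data. Named genes were the members, Mt3 and Mt4, the listed genes past a ratio of 2 in PT-like or TAL-like cells (at most 3 per list, type and direction), Mtf1 and Slc30a1 (chosen after their values were seen), and the 5 most alike genes by Pearson's r of log2(CPM + 10). Members and lists were chosen with earlier results of these data known. Promoters came from RefSeq (GRCm38.p6), and gene positions from GENCODE M21. Of the 4 metallothionein genes all matched.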

Additional observations from a re-analysis of the deposited data

Results flagged for a closer look

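Mt1 in CD-IC-like cells had a ratio of ischemia to control CPM of 0.881, with an interval below 1, while Mt1 was above 1 in the other 12 types. The difference between the types was not tested, and it rests on 58 control and 45 ischemia cells. The CD-IC-like direction turned in 3 of 10 alternatives. Podocyte-like Mt1 also had a ratio below 1, at 0.741 (0.613 to 0.890), without the 1 ischemia cell that held the most Mt1 UMIs.

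Mt3 in TAL-like cells had a ratio of 0.119, opposite to Mt1 and Mt2 in the same cells and to Mt3 in PT-like and stromal-like cells, where its UMIs were few. This difference was not tested either.

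Signal outside the comparisons also differed between the libraries. Barcodes removed by the filters, all 2524 of the control and 2137 of 2141 of the ischemia library for their mitochondrial share, held 179 CPM of Mt1 and 31.3 CPM of Mt2 in the control and 488 and 146 CPM in the ischemia library. These barcodes held 71.8% and 70.3% mitochondrial UMIs, and without those Mt1 was at 634 and 1645 CPM and Mt2 at 111.1 and 493 CPM. The unnamed low-depth cluster held 1488 CPM of Mt1 and 423 CPM of Mt2 in the ischemia library, against 500.1 and 90.9 CPM in the control.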

How the results depend on the processing

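Counts of cell types with a ratio of at least 2 stayed within 1.5 times under all 11 alternatives run, from 7 to 8 for Mt1 and from 7 to 12 for Mt2, though the number of named types was 12 with at most 25% mitochondrial UMIs (7 and 9), 11 without integration (8 and 7) and 16 with marker UMIs (8 and 10), against 13 otherwise. A type with 0 control UMIs of the gene gave no ratio and counted as not 2-fold. This held for Mt2 in thinned PMN-like and B cell-like cells, and PMN-like Mt2 had a ratio in only 6 of 11 alternatives. The PT-like ratio of Mt1 (2.90) was 3.31 with at most 25% mitochondrial UMIs, 3.22 with at least 1000 UMIs per cell, 3.31 at resolution 0.6, 2.72 with marker UMIs in place of clusters, 2.50 as the mean over cells, 2.75 without mitochondrial UMIs in the total, 2.43 without the 5% of cells richest in both genes, 2.59 in thinned cells and 3.01 without the 8% of cells that scored highest as doublets, an alternative added after the data were seen. The PT-like ratio of Mt2 (4.53) was, in the same order and except for the total without mitochondrial UMIs and the doublet scores, 4.98, 5.21, 5.61, 3.99, 3.89, 3.39 and 3.72. The cause of these differences was not tested. Of 274 ratios recomputed, 171 stayed within their counting interval and 0 reversed a called direction. Only types at least 2-fold apart had a called direction, so smaller differences could not count as reversed. Among those, CD-IC-like Mt1 crossed a ratio of 1 in 3 of 10 alternatives. Podocyte-like cells did so in 2 of 11 for Mt1 and 1 of 11 for Mt2. Without integration no cluster passed as PT-like, so that setting gave no PT-like value, and leaving out called doublets could not be run because none were called. With at least 30 UMIs per gene, the number of genes past a ratio of 2 grew by 1.46 to 11.03 times and by over 1.5 times in 12 of 13 types (1095 to 1741 in PT-like cells). No paired analysis was possible because each group has 1 library.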
